A study of Mus musculus with 14 samples.

Results

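Iron handling was followed through 9 genes of mouse cells: Slc11a1, Hmox1, Slc40a1, Fth1, Ftl1, Tfrc, Cd163, Spic and Slc11a2. They were chosen by name, and all 9 were among the 21138 genes of the count table. They were measured in 648 single cells of 14 samples by Smart-seq2, in which each sorted cell gives its own library of whole transcripts. The 9 tumor-bearing samples came from C57BL/6J females, 6 to 8 weeks old, injected with B16F10, a mouse melanoma line derived from that strain and made fluorescent here, and cells of blood and lung were sorted by flow cytometry on tumor and host markers. The sorted classes are labelled DP (450 cells from 9 samples), CTC (43 cells from 5 samples) and WBC (46 cells from 6 samples), and the question of the study is the identity of circulating cells that may be tumor-leukocyte hybrids. The titles of tumor-bearing replicates 1 to 6 begin with C and those of replicates 7 to 9 with P. All CTC came from samples titled C, so DP ranges over 9 samples include samples titled P that have no CTC. The 5 controls had 1 sample each: naive CDP (18 cells), naive Duplike (24), naive PltLike (24) and naive WBC (21), all from female C57BL/6J mice of the same age, and B16F10 cells (22), whose label gives the cell type CTC. The labels do not explain CDP, Duplike or PltLike, and they do not say whether the samples are separate animals, so p-values measure only the spread between these samples.

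Cells take up iron bound to transferrin through the transferrin receptor Tfrc, move it out of endosomes through Slc11a2, store it in ferritin, which is built from the heavy chain Fth1 and the light chain Ftl1, and release it through ferroportin, Slc40a1. Macrophages also take up hemoglobin bound to haptoglobin through Cd163, break down heme with heme oxygenase Hmox1 and pump metal ions out of phagosomes through Slc11a1. Spic is a transcription factor of the red pulp macrophages that clear old red cells. When iron is low, iron regulatory proteins bind stem-loops called iron-responsive elements, which blocks translation of ferritin and ferroportin and protects the Tfrc transcript, so transcript levels of these genes are only part of their control. C57BL/6J mice carry a loss-of-function allele of Slc11a1, so its transcript is measured here on that background.

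In the annotation of GRCm38 the members lie at chr1:74375195-74386062 (Slc11a1, plus strand), chr8:75093621-75100589 (Hmox1, plus), chr1:45908068-45926523 (Slc40a1, minus), chr19:9980598-9985098 (Fth1, plus), chr7:45457944-45459884 (Ftl1, minus), chr16:32608920-32632794 (Tfrc, plus), chr6:124304656-124330527 (Cd163, plus), chr10:88674772-88685015 (Spic, minus) and chr15:100387898-100425072 (Slc11a2, minus).

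The elements found by a strict search are shown, because their regulation acts after the transcript is made and is not read by counts. Each line gives the gene and the element in the transcript of GENCODE vM21 (GRCm38), 5′ to 3′, with the loop in capitals:
Fth1: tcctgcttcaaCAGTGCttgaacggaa
Ftl1: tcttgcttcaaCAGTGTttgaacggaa
Slc40a1: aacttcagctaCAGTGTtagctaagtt
Tfrc element 1: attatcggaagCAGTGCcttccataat
Tfrc element 2: attatcgggagCAGTGTcttccataat
Tfrc element 3: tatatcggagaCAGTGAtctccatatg
Tfrc element 4: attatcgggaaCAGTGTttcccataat
The search, on the transcript strand, asked for a C, 5 bases, the loop CAGTGN and 5 bases that pair with the first 5, G with T allowed. The elements of Fth1 (chr19:9982733-9982759, plus strand), Ftl1 (chr7:45459780-45459806, minus) and Slc40a1 (chr1:45925466-45925492, minus) lie in the 5′ UTR, where 0.151% of 20580 genes held a match. The 4 of Tfrc lie in its 3′ UTR on chromosome 16, plus strand, from chr16:32631220-32631246 to chr16:32631711-32631737, where 0.615% of 20962 genes held a match. These letters were not found in the UTRs of the other 5 members, which says nothing of looser forms: Slc11a2 is known to carry an element with an extra bulge in the 3′ UTR of some isoforms.

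Counts are given as CPM, counts scaled to the library total. For sums that total was adjusted by a factor (TMM) set separately in each fit, while CPM of cells and controls are plain. The same cells can therefore have different CPM in different comparisons, and only sums of 1 fit share a scale. Sample totals, in megacounts (Mcounts), ran from 207.7 to 1728 in tumor-bearing samples and from 26.6 (naive WBC) to 471.3 in controls, and the median cell held 15.84 Mcounts in DP, 22.11 in CTC, 4.933 in WBC and 1.053 in naive WBC. Cells were grouped by clustering without any iron gene. Of the 450 DP cells, 272 were melanoma-like and 159 fell in 4 macrophage-like clusters, and 42 of 43 CTC were melanoma-like, as were all B16F10, CDP, Duplike and PltLike cells. Of the 46 WBC, 25 were macrophage-like and none melanoma-like. The macrophage-like clusters were an alveolar one (49 DP cells of lung, 1 of blood), one led by Ccl4 and Spp1 (25 of lung, 1 of blood), one led by Stab1 (17 of lung, 31 of blood) and a serous cavity one (35 of blood). A sum over a sorted class therefore mixes kinds of cell, and in such a sum fewer cells of a kind and less RNA per cell cannot be told apart. Values per sample in comparisons of classes are averages over the tissues that the class had in that sample, which differ between classes, so counts of pairs below set sums of the same sample and the same tissue side by side.

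Ferritin transcripts were higher in macrophage-like DP cells of the lung than in those of the blood. The sums of Fth1, the chain that oxidises iron for storage, were 8385, 19470 and 42010 CPM (lowest, median, highest of 7 samples) in lung, against 2551, 3955 and 11170 CPM (6 samples) in blood. Those of Ftl1, the chain that helps form the iron core, were 13200, 19770 and 35210 CPM in lung, against 4784, 8412 and 20540 CPM in blood. For both genes the ranges overlapped, and lung was the higher in all 4 samples that held both tissues.

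**Figure D1:**
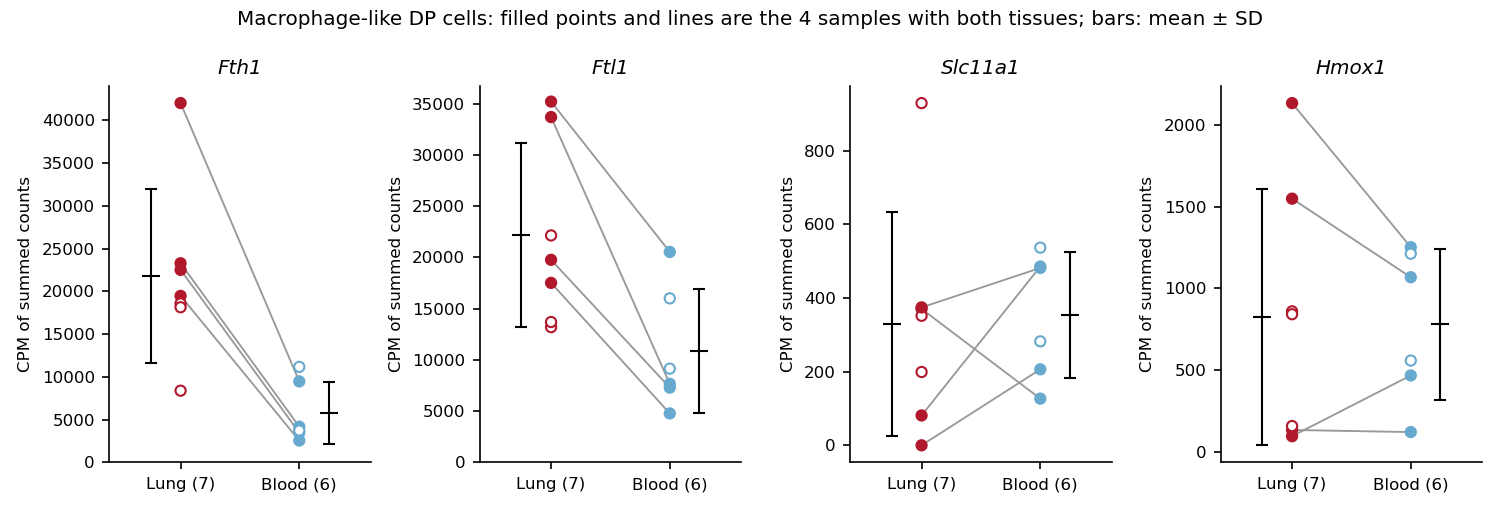
CPM of summed counts in macrophage-like DP cells of lung (red) and blood (blue), 1 point per sample, with lines between tissues of the same sample and bars for the mean ± SD. Fth1 and Ftl1 are higher in lung in all 4 joined samples, while Slc11a1 and Hmox1 have lines in both directions.

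Means were 21770 ± 10170 CPM in lung (SD, n = 7) and 5763 ± 3612 CPM in blood (n = 6) for Fth1, and 22180 ± 8968 CPM in lung and 10910 ± 6050 CPM in blood for Ftl1. With the sample as a block, the log2 difference was 2.56 ± 0.26 (SE) for Fth1 (edgeR quasi-likelihood, adjusted p = 2.08e-11) and 1.56 ± 0.25 for Ftl1 (adjusted p = 1.2e-05). These 2 were the members called, of 7 tested, where 0.75% of 9872 genes were called (0.506% higher and 0.243% lower), and the median over all genes was -0.60. The fit had 3 residual degrees of freedom, and edgeR added 70.79 prior degrees of freedom from the spread pooled over genes. These p-values therefore rest mostly on that pooled spread and little on the spread of each gene between samples. Several alternatives lost the calls. With DESeq2 size factors the differences were 2.81 (adjusted p = 0.37) and 1.78 (adjusted p = 1), and without the replicate block 1.92 (adjusted p = 0.0326) and 1.02 (adjusted p = 0.298). The DESeq2 test gave adjusted p = 0.0542 for Fth1 and 0.301 for Ftl1. The Ftl1 call was also lost without replicate 1 (1.23, adjusted p = 0.497) and without replicate 2 (1.42, adjusted p = 0.105).

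Among the 4 macrophage-like clusters, the alveolar one, almost wholly of lung, had the highest median ferritin levels in DP cells of lung. Its 49 DP cells of lung had a median of 30930 CPM for Fth1 (6382 to 63900) and 24270 CPM for Ftl1 (8224 to 86640), and the cells led by Ccl4 and Spp1 had medians of 11470 and 13470 CPM. Without the alveolar cluster the lung difference was 2.10 for Fth1 (adjusted p = 0.00178) and 0.99 for Ftl1 (adjusted p = 0.84), and without the block as well it was 1.44 (adjusted p = 0.316) and 0.60 (adjusted p = 0.983). Only the cluster led by Stab1 had more than 1 DP cell in each tissue, and there the median cell had 10260 CPM of Fth1 in lung and 4268 CPM in blood. There the log2 difference, without a block, was 1.30 for Fth1 (adjusted p = 0.672) and 0.88 for Ftl1 (adjusted p = 0.988). The sum of 12 alveolar macrophage markers moved with ferritin, at a median of 7317 CPM (1317 to 20150) in lung sums and 483 CPM (1.43 to 6785) in blood sums, and so did the melanocyte markers, at 1581 CPM in lung and 378.6 CPM in blood. The part of these markers in the difference was not tested beyond the fits without the alveolar cluster.

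The balance of the chains was set beside these levels, with no test. Counts of Fth1 over counts of Ftl1 in macrophage-like DP sums were 0.612, 1.11 and 1.41 (lowest, median, highest) in lung, against 0.408, 0.505 and 0.698 in blood. The ranges overlapped narrowly, and 4 of 7 lung sums and 0 of 6 blood sums were above 1. In single cells the median ratio was 1.17 in alveolar DP cells, 0.787 in Stab1 cells of lung and 0.566 in those of blood, 0.363 in serous cavity DP cells, 0.394 and 0.375 in melanoma-like DP cells of lung and blood, and 0.348 in CTC of blood. Medians above 1 were not particular to alveolar cells. Lung cells of a cluster with neutrophil and fibroblast genes had 2.59 in DP (14 cells) and 1.81 in WBC (9 cells). B-cell-like cells of blood had 1.12 in DP (4 cells) and 1.09 in WBC (8 cells). These ratios are counts, not corrected for length, and are compared only across groups.

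**Figure D2:**
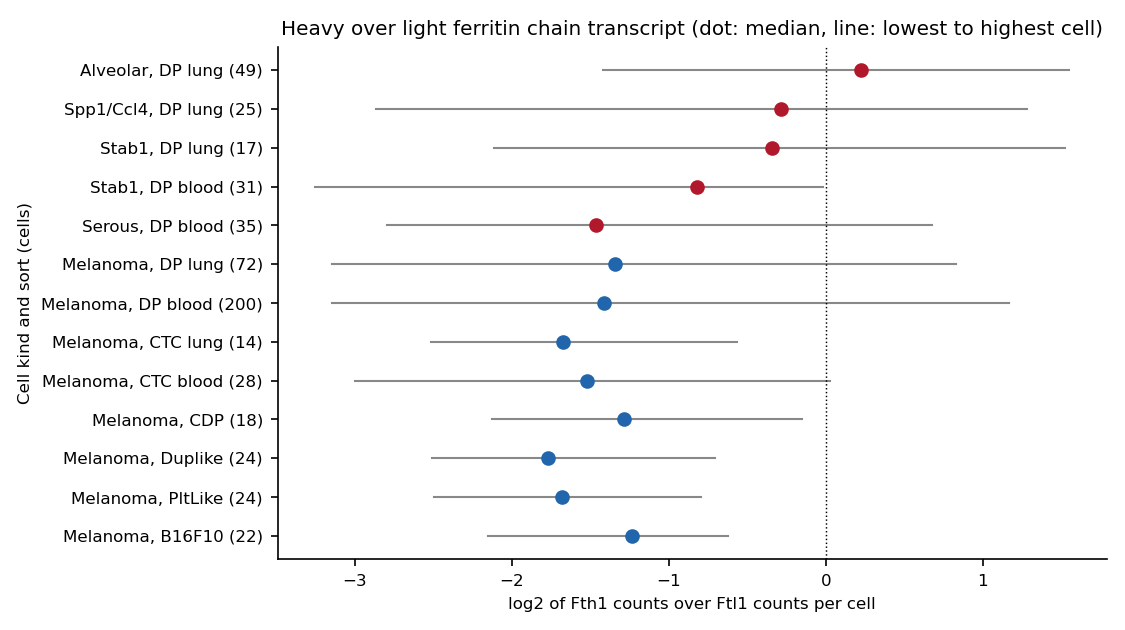
Log2 of Fth1 counts over Ftl1 counts per cell (dot: median; line: lowest to highest cell), with the number of cells in brackets, macrophage-like groups in red and melanoma-like groups in blue. Of the groups shown, only the alveolar DP cells have a median above 0 (ratio 1.17), and the melanoma-like groups have medians at or below a ratio of 0.426. Cells of other clusters are not shown.

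In melanoma-like cells ferritin did not differ detectably between DP and CTC. Fth1 sums of melanoma-like DP were 1845, 2394 and 2807 CPM (8 samples), against 2413, 2416, 2270, 2476 and 3245 CPM in the 5 CTC samples, and the ranges overlapped. The log2 difference was -0.02 ± 0.10 for Fth1 and -0.04 ± 0.12 for Ftl1 (adjusted p = 0.998 each), and none of 7 members tested was called, where 0.0337% of 11856 genes were called. The control sums, in plain CPM, were 3946 CPM of Fth1 in naive CDP, 2619 in Duplike, 2852 in PltLike and 3796 in B16F10, with 1 sample each and no test.

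Across the whole sorted classes of tumor-bearing samples, ferritin was lower in CTC than in WBC. Fth1 was 2296, 5807 and 25010 CPM (lowest, median, highest) in the 9 DP samples. The CTC samples had 1716, 1818, 1770, 1946 and 2364 CPM, all below the WBC samples, at 3115, 8547 and 25640 CPM (lowest, median, highest of 6). These CTC values come from another fit than those of melanoma-like CTC above and are on another scale. Before averaging over tissues the sums overlapped, as CTC reached 2530 CPM and WBC fell to 2487 CPM. Naive WBC, 1 sample with no test, held 2625 CPM of Fth1 and 3698 CPM of Ftl1 as plain CPM. Pooled in the same way, CTC held 2562 and 7031 CPM, and WBC of tumor-bearing samples 8937 and 8381 CPM. CTC were therefore close to naive WBC in Fth1 and above them in Ftl1. The log2 difference of CTC against WBC was -2.11 ± 0.45 for Fth1 (adjusted p = 0.00113) and -1.08 ± 0.34 for Ftl1 (adjusted p = 0.0203), lower in 7 of 7 pairs of the same tissue for Fth1 and in 6 of 7 for Ftl1. In that comparison 26.6% of genes were called, and 4 of 8 members tested, all lower in CTC (10.6% of genes were called lower). The median log2 difference over all genes there was 0.74. With sums of at least 5 cells the differences were -1.16 (adjusted p = 0.181) and -0.53 (adjusted p = 0.492). The Ftl1 call was also lost in blood alone (-0.73, adjusted p = 0.113), with cells weighted equally (-0.14, adjusted p = 0.633) and without replicate 2 (-0.78), 5 (-1.18) or 6 (-0.96). DP against WBC gave -0.87 ± 0.42 for Fth1 (adjusted p = 0.148, but 0.0357 without the replicate block and 0.00123 in blood alone). The median over all genes was 1.17 in DP against WBC. Fth1 was lower in DP in 8 of 8 pairs of the same tissue. The 3 lung pairs were close, at 48340 against 48790, 10260 against 10500 and 18380 against 22500 CPM. Blood pairs ran from 1686 against 2487 CPM to 1357 against 9392 CPM. For Ftl1, DP against WBC gave -0.39 ± 0.31 (adjusted p = 0.422). DP against CTC gave 1.24 ± 0.48 for Fth1 (adjusted p = 0.175) and 0.69 ± 0.35 for Ftl1 (adjusted p = 0.462). Reads of Ftl1 may be shared with its copy Ftl1-ps1, which held a median of 2.44% of the counts of the pair, and up to 22.6% in 1 DP cell.

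**Figure D3:**
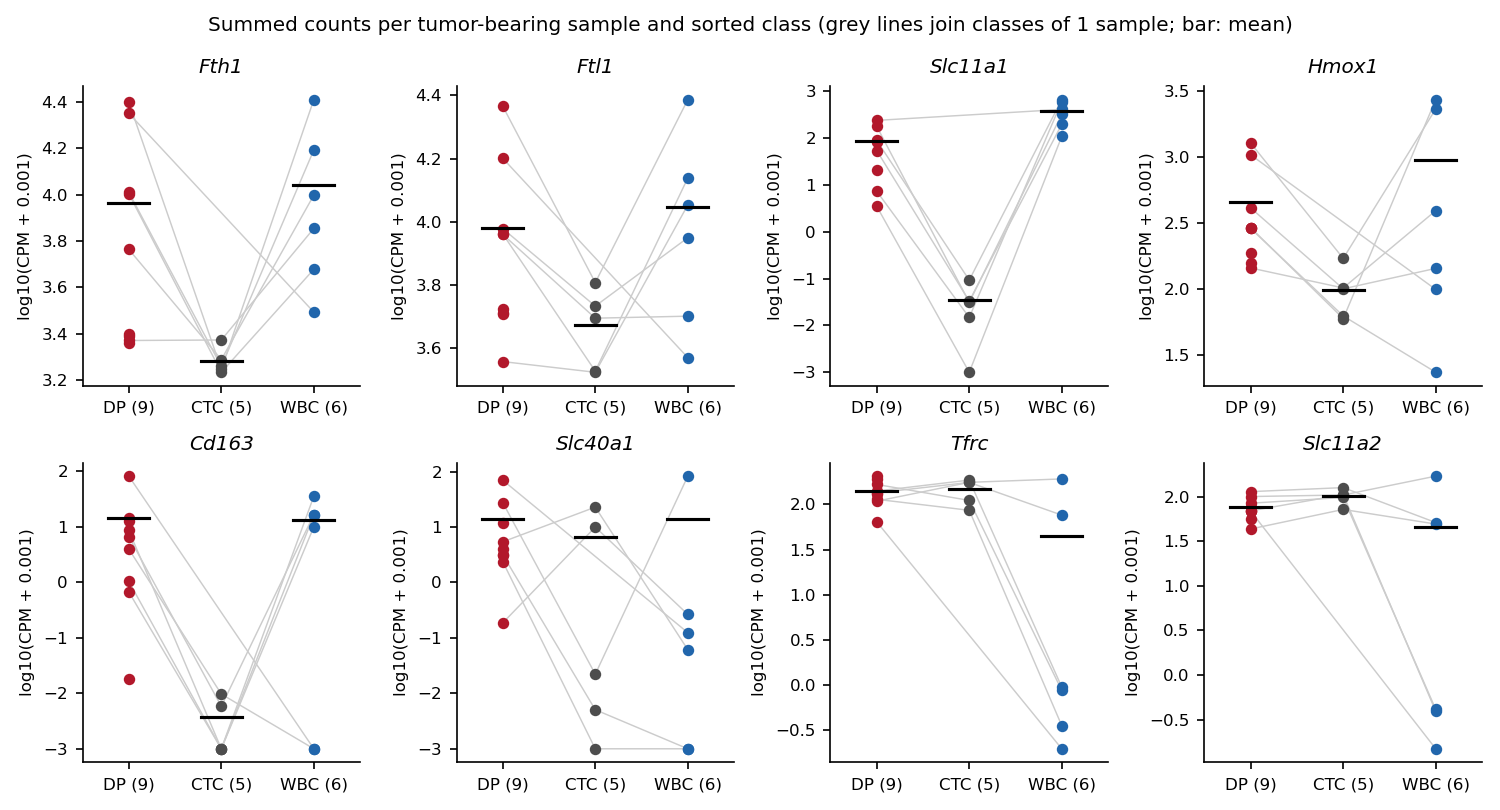
Log10 of CPM, with a small constant added, for summed counts of each tumor-bearing sample, averaged over its tissues, in DP (red), CTC (grey) and WBC (blue), with lines between classes of 1 sample and bars at the log of the mean. Slc11a1 separates CTC, at 0.0921 CPM or less, from every DP and WBC average, while the ranges of DP and WBC overlap for the 8 genes shown.

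Slc11a1, the phagosomal metal transporter, was the member called in all 3 comparisons of sorted classes. Its sums were 3.51, 84.2 and 239.9 CPM (lowest, median, highest of 9) in DP. The 5 CTC samples had 0, 0.0302, 0.0321, 0.0921 and 0.0138 CPM, and the WBC samples 109.1, 367.3 and 666 CPM (of 6). On these averages CTC lay below every DP and WBC sample, and DP and WBC overlapped. Before averaging, CTC reached 0.138 CPM and was below every WBC sum (lowest 0.37 CPM) but not below every DP sum (lowest 0.0836 CPM). DP was above CTC in 7 of 7 pairs of the same tissue, and below WBC in 5 of 5 pairs of blood and 2 of 3 of lung.

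The log2 difference of DP against CTC was 10.29 ± 1.54 (adjusted p = 8.54e-05), and that of CTC against WBC was -13.50 ± 1.68 (adjusted p = 2.54e-06). With so few counts in CTC (97 over 42 summed cells), the size of both depends on the counts the fit adds. In DP against CTC 2 of 8 members were called, both higher, where 5.85% of genes were called, all higher. DP against WBC gave -3.21 ± 1.12 (adjusted p = 0.0423), the only member of 8 called there, where 20.5% of genes were called and 2.91% called lower. That call is fragile: it was lost with sums of at least 5 cells (-2.43, adjusted p = 0.523), with cells weighted equally (-1.66, adjusted p = 0.15), with no filter (adjusted p = 0.0526) and without replicate 1 (-2.95), 3 (-3.64), 5 (-2.92) or 6 (-2.73), with adjusted p from 0.0885 to 0.167. In blood alone it was -4.88. The summed macrophage markers stood at a median of 1139 CPM in DP of blood and 42720 CPM in WBC of blood, and their part in the difference was not tested.

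Within macrophage-like cells no difference of Slc11a1 between DP and WBC was detected, which does not show the classes to be alike. DP was higher in 2 of 6 pairs of the same tissue and lower in 4. Slc11a1 averaged 371.2 ± 242.9 CPM in DP (n = 9) and 372.7 ± 213 CPM in WBC (n = 5), a log2 difference of -0.27 ± 0.80 (adjusted p = 0.993). By cluster, the median DP cell had 201.2 CPM in the cells led by Ccl4 and Spp1, 194.9 CPM in Stab1 cells of lung and 147.7 CPM in those of blood, and 236.2 CPM in serous cavity cells. Alveolar DP cells stood apart at 0.222 CPM, with 10 of 49 above 10 CPM.

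Macrophage-like DP of lung had Slc11a1 sums of 0.162, 351.8 and 929.1 CPM, against 126.9, 382 and 536.8 CPM in blood, and the difference was -1.76 ± 1.28 (adjusted p = 1). It was 0.01 without the alveolar cluster and 0.65 with sums of at least 5 cells, neither called. Lung was lower in 3 of the 4 samples with both tissues, and the ranges overlapped.

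A few melanoma-like DP cells carried Slc11a1. Melanoma-like DP sums were 0.0232, 2.01 and 11.2 CPM (8 samples), against 0, 0.0402, 0.0413, 0.115 and 0.019 CPM in CTC, and DP was higher in 6 of 6 pairs of the same tissue. The log2 difference was 6.61 ± 1.25 (adjusted p = 0.214), and it passed only without the replicate block (6.15, adjusted p = 0.044) and by DESeq2 (6.23, adjusted p = 9.99e-09). The signal came from few cells: 16 of 272 exceeded 10 CPM, the highest at 342.8 CPM, against 0 of 42 CTC. With each cell thinned to 200000 counts, 6.25% of melanoma-like DP cells held at least 2 counts (17 of 272, exact binomial interval 3.68% to 9.82%; 40.8% held a count before thinning), and 0 of 42 CTC did, which allows a share of up to 7.14%. Control cells were not all empty: 7 of 18 CDP cells and 4 of 24 Duplike cells exceeded 10 CPM, against 0 of 24 PltLike cells, which held no count at all, and 0 of 22 B16F10 cells. No doublet caller was run. The macrophage markers of melanoma-like DP cells had a median of 29 CPM in lung and 26 CPM in blood but reached 23720 CPM, and those of CDP cells had a median of 381.4 CPM and reached 15330 CPM. Their part in these counts was not tested.

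**Figure D4:**
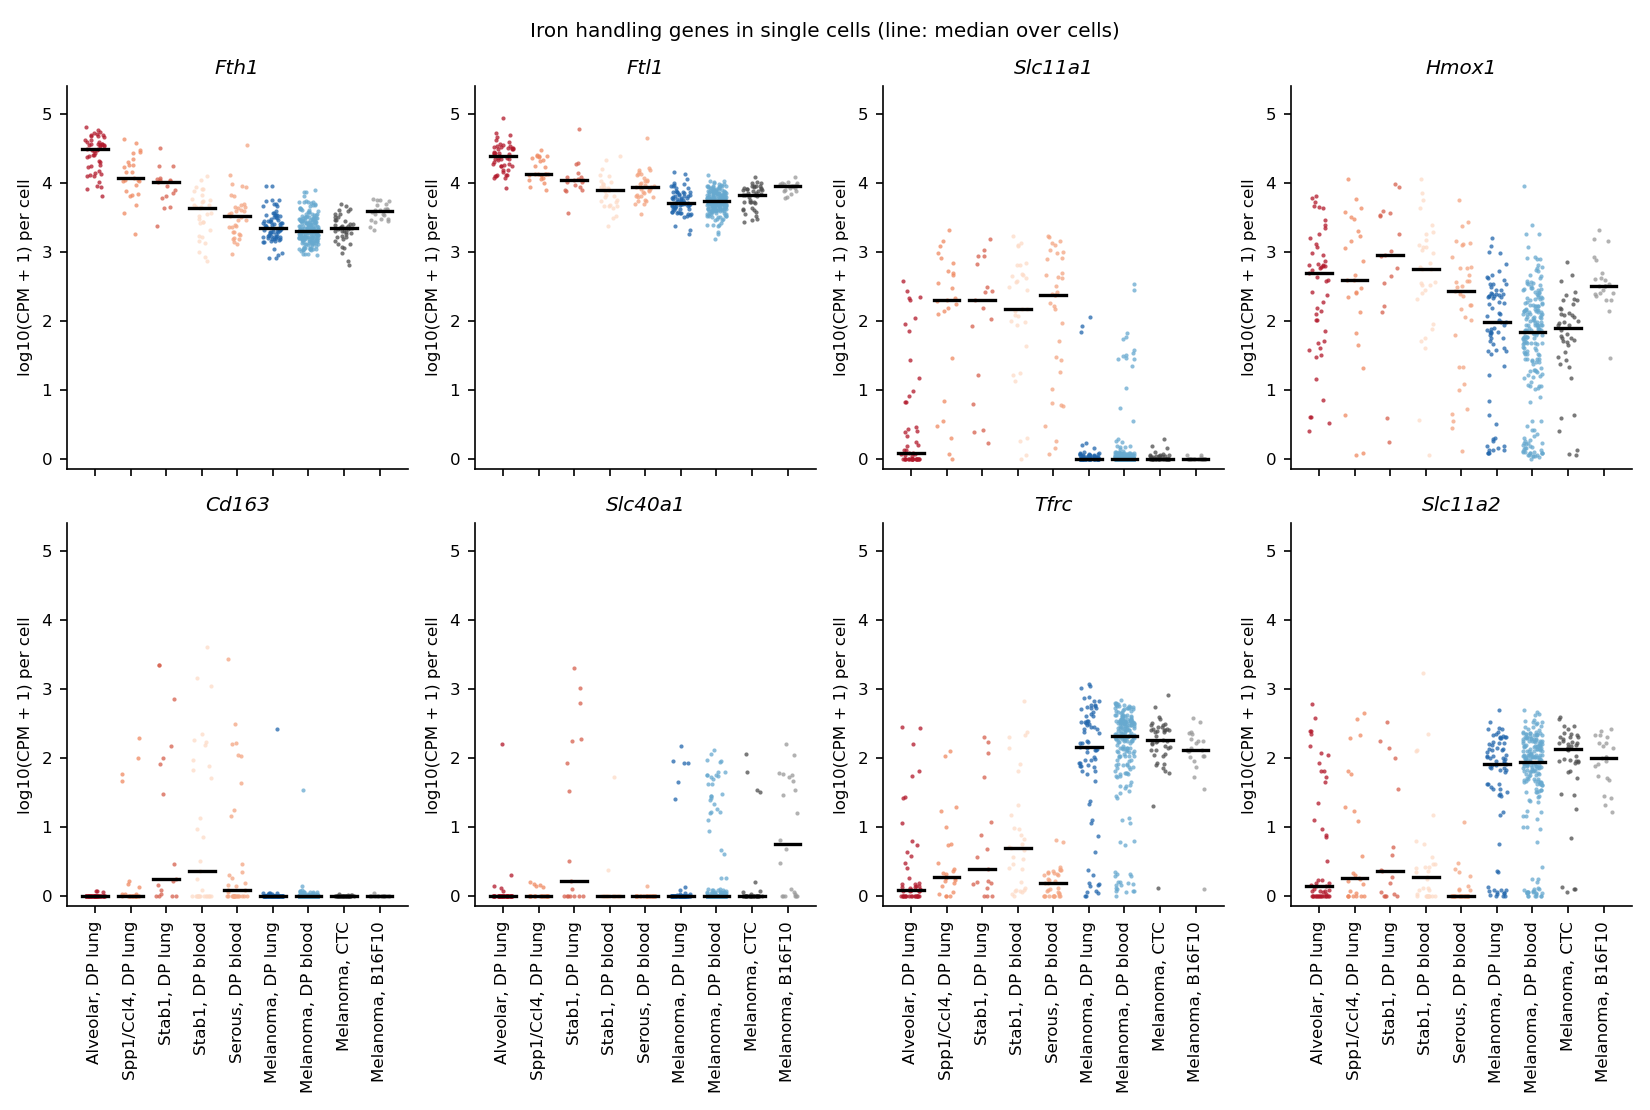
Log10 of CPM plus 1 in single cells, 1 point per cell and a line at the median, for macrophage-like DP groups (reds), melanoma-like DP groups (blues) and CTC and B16F10 (greys). Fth1 and Ftl1 are high in every group shown, Slc11a1 is low in alveolar and melanoma-like groups, and Tfrc and Slc11a2 are high in melanoma-like groups.

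Slc11a2, the related transporter of endosomes, had a different distribution. In the sums it was 43.4, 69.6 and 113.7 CPM in DP and 105.4, 97.8, 104.3, 126.2 and 71.8 CPM in CTC, against 0.148, 24.8 and 169.7 CPM in WBC. It was lower in DP than in CTC in 5 of 7 pairs of the same tissue, and the difference was -0.19 ± 1.01 (adjusted p = 1). Against WBC it was 2.21 ± 1.17 in DP (adjusted p = 0.194) and 2.39 ± 1.22 in CTC (adjusted p = 0.151), with WBC samples spread over both extremes. The medians over all genes were 1.17 and 0.74. Both passed by DESeq2 (adjusted p = 0.0373 and 0.0222) and with cells weighted equally (adjusted p = 0.00471 and 0.00238), but not in blood alone (adjusted p = 0.108 and 0.0889). DP was above WBC in 4 of 5 pairs of blood and 1 of 3 of lung, and CTC in 5 of 5 and 1 of 2.

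Median melanoma-like cells held 79.5 CPM of Slc11a2 in DP of lung, 86.6 in DP of blood, 118.6 in CDP, 110.3 in Duplike, 66.9 in PltLike and 99.7 in B16F10. The median macrophage-like DP cell held 0.621 CPM in lung and 0 CPM in blood, with 29 of 91 and 6 of 68 cells above 10 CPM. The lung difference in macrophage-like DP was 2.43 ± 2.39 (adjusted p = 1). A gene on the other strand, Gm5475, overlaps Slc11a2, and strand was not stated for the counting.

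Tfrc, the receptor for iron-loaded transferrin, was at high levels in melanoma-like cells and in a few macrophage-like cells. Its sums were 64.1, 134 and 205.3 CPM in DP and 86, 185.7, 175.3, 175 and 110.6 CPM in CTC, against 0.197, 0.913 and 191.2 CPM in WBC. Only WBC replicates 3 (191.2 CPM) and 5 (76 CPM) reached the range of the other classes.

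The log2 differences against WBC were 3.78 ± 1.45 in DP (adjusted p = 0.0644) and 3.56 ± 1.42 in CTC (adjusted p = 0.0645), and neither passed. The medians over all genes were 1.17 and 0.74. Pairs of the same tissue split by tissue: DP was above WBC in 5 of 5 pairs of blood and 1 of 3 of lung, and CTC was above WBC in 5 of 5 pairs of blood and 1 of 2 of lung. In blood alone both passed, at 6.77 (adjusted p = 0.000108) and 6.26 (adjusted p = 7.29e-05), and without replicate 3 they were 5.37 (adjusted p = 0.0224) and 5.15 (adjusted p = 0.0194). They also passed by DESeq2 and with cells weighted equally. DP against CTC was 0.23 ± 1.06 (adjusted p = 1).

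In melanoma-like cells Tfrc averaged 246.1 ± 30.1 CPM in DP (n = 8) and 194.6 ± 54.9 CPM in CTC (n = 5), a difference of 0.25 ± 0.17 (adjusted p = 0.998). Controls held 164 CPM in CDP, 302.7 in Duplike, 223.7 in PltLike, 148.4 in B16F10 and 2.18 in naive WBC. The median macrophage-like DP cell had 0.547 CPM in lung and 0.981 CPM in blood, and 17 of 91 cells of lung and 9 of 68 of blood were above 10 CPM. Macrophage-like WBC of lung had sums of 302.6 CPM in replicate 3 and 111.5 CPM in replicate 5, above the DP sums of lung in the same samples (27.6 and 13.3 CPM), with 3 of 8 such WBC cells above 10 CPM.

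Hmox1, which opens the heme ring and frees its iron, was found in macrophage-like and melanoma-like cells and passed in no comparison by edgeR as first fitted. Its sums were 144, 287.6 and 1271 CPM in DP and 100.2, 101.7, 170.2, 62.4 and 59.6 CPM in CTC, against 23.4, 267.2 and 2712 CPM in WBC. DP was higher than CTC in 6 of 7 pairs of the same tissue (1.08 ± 0.86, adjusted p = 1). DP against WBC gave -0.07 ± 0.81 (adjusted p = 0.968), and that sign turned under 6 alternatives. CTC against WBC gave -1.15 ± 0.94 (adjusted p = 0.4), with CTC higher in 4 of 7 pairs of the same tissue and lower in 3. That difference passed only without the replicate block (-2.94, adjusted p = 0.0207).

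Medians over macrophage-like DP cells were 548.5 CPM of Hmox1 in lung and 358.7 CPM in blood, with single cells up to 11280 and 11110 CPM. In macrophage-like sums lung against blood was -0.14 ± 0.70 (adjusted p = 1). Melanoma-like DP had sums of 138.3, 196.6 and 227.3 CPM in lung (3 samples), against 52.2, 87.1 and 352.1 CPM in blood (lowest, median, highest of 7). The log2 difference was 1.29 ± 0.29 (unadjusted p = 0.00191, adjusted p = 1), higher in both samples with both tissues. It passed by DESeq2 (1.36, adjusted p = 0.000902) and with no filter (1.33, adjusted p = 0.0468), and the fit had 1 residual degree of freedom. By edgeR 0% of 13005 genes were called there (450 at an unadjusted p under 0.05, and 442 by DESeq2), and none of 8 members tested. Among controls, Hmox1 was 415.5 CPM in CDP, 103.9 in Duplike, 91.4 in PltLike, 496.2 in B16F10 and 22.9 in naive WBC.

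Cd163, the receptor for haptoglobin bound to hemoglobin, was found in few cells, mostly macrophage-like. Its sums were 0.0174, 6.6 and 80.7 CPM in DP and 0, 0.00864, 0, 0.0048 and 0 CPM in the CTC samples, against 0, 12.9 and 35 CPM in WBC. Every DP average was above every CTC average, the sums before averaging overlapped, and DP was the higher in 7 of 7 pairs of the same tissue. The blood pairs of replicates 3 and 5 were 0.002255 and 0.003731 CPM in DP against 0 in CTC. Such values rest on very few counts and cannot show a direction.

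With 7 Cd163 counts over 43 CTC cells, the size of both differences that involve CTC depends on the counts the fit adds. DP against CTC was 10.46 ± 2.73 (adjusted p = 0.0188) and CTC against WBC was -11.26 ± 2.94 (adjusted p = 0.00564). The first was lost with sums of at least 5 cells (adjusted p = 0.222), cells weighted equally (3.37, adjusted p = 0.189), in blood alone (adjusted p = 0.105) and without replicate 3, 5 or 6 (adjusted p = 0.0824, 0.0766 and 0.0525). The second was lost with sums of at least 5 cells (adjusted p = 0.078) and with cells weighted equally (-1.90, adjusted p = 0.178).

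In the cluster led by Stab1, of which Cd163 was a leading gene although it was left out of the clustering, 7 of 17 DP cells of lung and 12 of 31 of blood exceeded 10 CPM. In the serous cavity cluster 9 of 35 DP cells did, and in the alveolar cluster 0 of 49. Macrophage-like DP sums were 0.0253, 1.16 and 67 CPM in lung, against 0, 65.6 and 400.3 CPM in blood (-4.66 ± 4.53, adjusted p = 1), and the difference was 0.14 without the alveolar cluster.

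Slc40a1, the iron exporter, was at 0 in 357 of 450 DP, 35 of 43 CTC and 39 of 46 WBC cells. Its sums were 0.185, 4 and 69.8 CPM in DP and 0, 9.95, 0.00406, 0.0211 and 22.8 CPM in CTC, against 0, 0.0917 and 82.5 CPM in WBC, and the ranges overlapped throughout. No difference passed by edgeR as first fitted. DP against WBC was 6.81 ± 4.27 (adjusted p = 0.281), and it passed by DESeq2 (7.32), in blood alone (13.05, adjusted p = 0.0206) and without replicate 5 (11.17, adjusted p = 0.0417). DP against CTC was 4.24 ± 4.66 (adjusted p = 1), with 5.31 by DESeq2 (adjusted p = 0.0258) and -1.45 without replicate 3.

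The cells with Slc40a1 fell in separate places. In Stab1 DP cells of lung 7 of 17 exceeded 10 CPM, with 48.8% of the summed CPM in 1 cell, against 1 of 31 in blood. Among melanoma-like cells 6 of 72 DP cells of lung, 26 of 200 of blood and 4 of 42 CTC did, and among controls 11 of 18 CDP, 5 of 24 Duplike, 6 of 24 PltLike, 10 of 22 B16F10 and 5 of 21 naive WBC cells. The summed level was highest in naive WBC, at 283.8 CPM, against 41.8 in CDP, 26.4 in B16F10, 12.3 in PltLike and 8.4 in Duplike (1 sample each, no test). Spic was at 0 in 436 of 450 DP cells and 42 of 46 WBC cells and was too low to test in all 7 comparisons. Its highest sums were 16.7 CPM in DP of lung (replicate 3) and 282.4 CPM in WBC of lung (replicate 2), and 1 cell gave 99.9% of the summed CPM of WBC. The summed red pulp macrophage markers were at a median of 604.9 CPM in macrophage-like DP of lung and 931.5 CPM in those of blood.

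In macrophage-like cells DP against WBC gave no call among 7 members tested, where 0% of 9701 genes were called by edgeR (733 at an unadjusted p under 0.05, and 1593 by DESeq2). The log2 difference was 0.38 ± 0.30 for Fth1 (adjusted p = 0.883) and 0.38 ± 0.26 for Ftl1 (adjusted p = 0.842), and DP was higher in 4 of 6 pairs of the same tissue for each. Both differences lay below the median over all genes, which was 0.94. In blood alone Fth1 was higher in DP in 2 of 4 pairs.

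**Figure D5:**
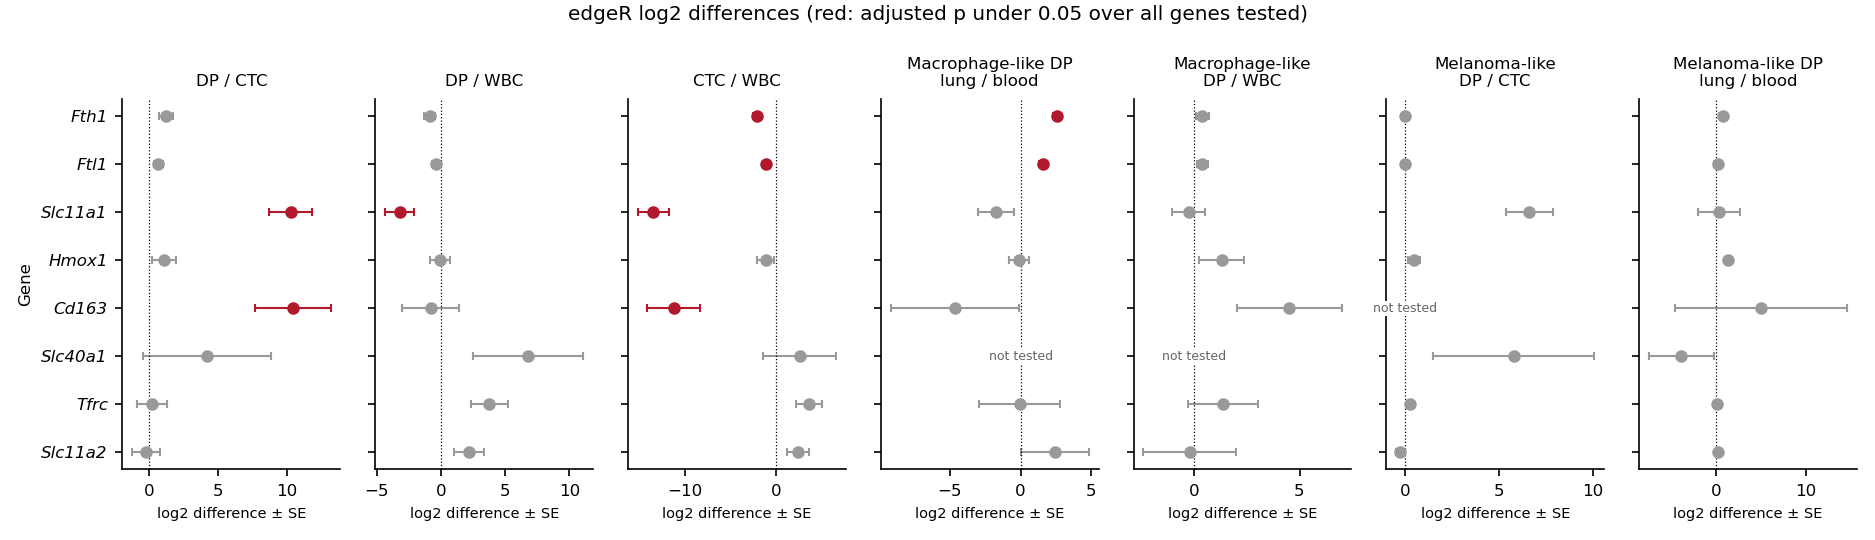
Log2 differences ± SE of 8 members in the 7 comparisons by edgeR, red where the adjusted p over all genes was under 0.05 and with separate axes per panel. Red points are Slc11a1 in the 3 class comparisons, Cd163 in both that involve CTC, and Fth1 and Ftl1 in CTC against WBC and in macrophage-like DP of lung against blood.

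Of 45 other genes of iron handling, 36 were tested between classes, and the numbers called stood below the share of all genes called: 3 where 20.5% of genes were called in DP against WBC, 1 where 5.85% were in DP against CTC and 4 where 26.6% were in CTC against WBC. In DP against WBC 1 was higher and 2 lower: Flvcr1, a heme exporter (28.4 ± 25.7 CPM in DP and 0.715 ± 1.38 CPM in WBC, log2 6.33 ± 1.69, adjusted p = 0.0101), Hp, haptoglobin (-5.21 ± 1.49, adjusted p = 0.0155), and Lcn2, which binds bacterial siderophores (-8.00 ± 2.83, adjusted p = 0.0483). In DP against CTC Hp alone was called, at 25.8 ± 34.1 CPM in DP and 0.0306 ± 0.0368 CPM in CTC (7.88 ± 1.65, adjusted p = 0.0034). CTC against WBC had 4, all lower in CTC: Hp (-13.09), Lrp1, a receptor for heme bound to hemopexin (-6.02), Blvrb, a biliverdin reductase (-5.35), and Iscu, a scaffold for iron-sulfur clusters (-1.56), with adjusted p from 1.94e-05 to 0.0315.

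None of the other iron genes passed within one kind of cell. The smallest p in macrophage-like DP against WBC belonged to Flvcr1 (8.16 ± 2.52) and Aco1, an iron regulatory protein (7.42 ± 2.42), each with adjusted p = 0.484. In macrophage-like DP of lung against blood they were Slc48a1, a heme transporter (2.81 ± 1.20, adjusted p = 0.9), and Slc22a17 (-9.42 ± 5.87, adjusted p = 1).

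Likeness was measured by Pearson's r of log2(CPM + 1) over 44 sums that share samples and depth, and is a description. Slc11a1 was most like Cd93 (r = 0.964), Adam8 and Rac2, Fth1 most like Clec4n (0.892), Cstb and Plet1, and Ftl1 most like Ftl1-ps1 (0.958), Plin2 and Cstb. Tfrc was most like Plekha8 (0.892), Tmem41b and Gpnmb, a melanocyte marker used to name cells here, and Cd163 most like Klhl6 (0.812), Slc28a2 and Irag2. Hmox1 followed Pld3 (0.717), Anp32a and Plin2, Slc11a2 followed Oxct1 (0.813), Eva1b and Gmpr, Slc40a1 followed Pfkfb4 (0.618), Gcnt2 and Usp40, and Spic followed Sema3a (0.851), Serpine2 and Tnc. Between members the highest were Fth1 with Ftl1 (0.774), Tfrc with Slc11a2 (0.698) and Slc11a1 with Cd163 (0.605).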

How the data were processed

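The authors deposited raw counts per gene and cell, whole numbers with no normalization, for 21138 genes and 648 cells. The tools that the submitters' processing notes name include Trim Galore, HISAT2, SAMtools and featureCounts, with the build mm10; their versions, options and any use of strand were not found there. Table entries of 2 were 3.59 times as many as entries of 1, and the reads carry no molecular identifiers, so intervals and limits (95%, 3 counts for a count of 0) cover counting error only.

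Sums of counts, each over the cells of 1 class in 1 tissue of 1 sample and at least 2 cells, entered the fits: 30 sums for the classes, 13 for macrophage-like DP by tissue, 20 for macrophage-like DP and WBC, 17 for melanoma-like DP and CTC and 10 for melanoma-like DP by tissue. Printed CPM of sums are TMM-scaled with factors set in each fit and, except in comparisons of tissues, averaged over a sample's tissues. CPM of cells and controls are plain. Tests were edgeR 4.0.16 quasi-likelihood fits (limma 3.58.1, R 4.3.3) after filterByExpr and TMM scaling, with a term for tissue, Benjamini-Hochberg adjustment over all genes tested and a threshold of 0.05. The sample was the replicate block, because classes and tissues of a number come from the same sample. DESeq2 1.42.0 was an alternative. Some of the fits were also run on simulated counts with a fixed spread and no differences between samples. Those counts are unlike these data, so that run does not measure how accurate the fits are here. Controls, with 1 sample each, had no test.

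Clusters came from the 2000 most variable genes on the log2(CPM + 1) scale, leaving out 54 iron genes (15 components, Ward linkage, 10 clusters) with Python 3.11.15, NumPy 2.4.6, pandas 2.3.3 and SciPy 1.17.1, and named from 15 marker lists. Coordinates and elements come from GENCODE vM21 (GRCm38, the same assembly as mm10). All 9 members were named, and of the other iron genes up to 4 called per comparison or the 2 with the smallest p. Members, lists and tests were chosen with earlier results of these data known.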

Additional observations from a re-analysis of the deposited data

Results flagged for a closer look

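Of 72 groups of 4 to 10 samples tested for a sample far from the others, 19 had one, in each case the highest sample. The limits flag about 5% of groups when values have a bell-shaped spread. Untransformed CPM were used here and groups share cells, so the 19 cannot be set against that 5%. Replicate 3 held 7 of them, replicates 2, 5 and 6 held 3 each, replicate 4 held 2 and replicate 8 held 1. Several are genes at 0 in most cells, where 1 cell can set a sum, and none was tested for a cause.

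In whole-class values, averaged over a sample's tissues, Cd163 in DP was 80.7 CPM in replicate 4 (others 0.0174 to 14), Slc40a1 in DP was 69.8 CPM in replicate 4 (others 0.185 to 27.4) and Spic in DP was 8.37 CPM in replicate 3 (others 0 to 0.487). In WBC sums, Slc11a2 was 169.7 CPM in replicate 3 (others 0.148 to 51.2), Slc40a1 was 82.5 CPM in replicate 5 (others 0 to 0.264) and Spic was 141.2 CPM in replicate 2 (others 0 to 0.0755). In CTC sums, Spic was 0.00996 CPM in replicate 3 (others 0 to 0.00288).

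In macrophage-like DP of lung, Slc11a1 was 929.1 CPM in replicate 8 (others 0.162 to 374.5) and Spic was 14.7 CPM in replicate 3 (others 0 to 0.404). In macrophage-like DP of blood, Cd163 was 400.3 CPM in replicate 6 (others 0 to 78.9), Tfrc was 189.3 CPM in replicate 3 (others 1.49 to 20.5), Slc40a1 was 1.75 CPM in replicate 2 (others 0 to 0.103) and Spic was 1.24 CPM in replicate 2 (others 0 to 0.00277). In macrophage-like WBC, Fth1 was 20490 CPM in replicate 3 (others 2646 to 6150), Slc40a1 was 0.0475 CPM in replicate 6 and Spic was 0.0769 CPM in replicate 5, with the others at 0.

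In melanoma-like cells, Spic was 0.281 CPM in DP replicate 5 (others 0 to 0.00332) and 0.0127 CPM in CTC replicate 3 (others 0 to 0.00346), and Fth1 was 3245 CPM in CTC replicate 6 (others 2270 to 2476).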

How the results depend on the processing

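Over 53 results on the members, 830 values were computed under alternatives. Of these, 714 kept direction and side of the threshold, 35 lost a call, 26 gained one and 55, in 23 results, changed sign, all passing in neither fit. The cause was not tested. Some alternatives could not change a result, so the 714 do not measure stability. Cutting the tree into 12 clusters left the macrophage-like cells unchanged, and sums of at least 5 cells left melanoma-like lung against blood unchanged. In that last comparison the fits without 1 replicate dropped only samples with 1 tissue. The fits without the alveolar cluster and of the Stab1 cluster alone were chosen after seeing the data.

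Without the replicate block 24 genes were called in macrophage-like DP of lung against blood (74 with it) and 54 in melanoma-like DP against CTC (4 with it). The share of higher calls was 70.3% without the block and 85.8% with it in DP against WBC, and 50.2% and 60.1% in CTC against WBC. Signs that changed without the block were DP against CTC for Slc40a1 (-0.81) and Tfrc (-0.23), macrophage-like DP against WBC for Hmox1 (-0.10), Tfrc (-0.17) and Slc11a2 (0.23), macrophage-like lung against blood for Hmox1 (0.08), and melanoma-like lung against blood for Slc11a1 (-0.31), Slc40a1 (0.07) and Slc11a2 (-0.05).

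DESeq2 called 5281 genes in DP against WBC, 1468 in DP against CTC, 5829 in CTC against WBC, 1344 in macrophage-like lung against blood, 1593 in macrophage-like DP against WBC, 786 in melanoma-like DP against CTC and 442 in melanoma-like lung against blood. Sums of at least 5 cells gave 294, 160, 1281, 128 and 24 in the first 5 of these, and equal weights of cells gave 5563, 262, 6354 and 20 in the first 4 and 13 in melanoma-like DP against CTC. DP against CTC in blood alone gave 336. Macrophage-like lung against blood gave 20 with DESeq2 size factors, 6 without the alveolar cluster and the block, and 0 in the Stab1 cluster alone. Macrophage-like DP against WBC gave 30 with no filter and 1 without the alveolar cluster, and melanoma-like lung against blood gave 35 with no filter. DESeq2 size factors moved the median of all genes to 0.95 from 1.17 in DP against WBC and to -0.41 from -0.60 in macrophage-like lung against blood.

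Leaving out 1 replicate gave 1599 to 2580 genes in DP against WBC, 361 to 725 in DP against CTC, 2387 to 3340 in CTC against WBC, 25 to 112 in macrophage-like lung against blood, 0 to 3 in macrophage-like DP against WBC and 0 to 4 in melanoma-like DP against CTC. The log2 differences that changed sign ranged from -0.70 to 0.43 (Hmox1) and -2.12 to 0.04 (Cd163) in DP against WBC, -1.45 to 8.96 (Slc40a1) and 0.0 to 0.27 (Tfrc) in DP against CTC, -3.19 to 5.67 (Slc40a1) in CTC against WBC, -0.48 to 0.44 (Hmox1) and -1.10 to 0.90 (Tfrc) in macrophage-like lung against blood, -1.38 to 2.11 (Slc11a2) in macrophage-like DP against WBC and -0.08 to 0.01 (Fth1) in melanoma-like DP against CTC.

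Other changes of sign were, with sums of at least 5 cells, Hmox1 (0.51) and Ftl1 (0.09) in DP against WBC, Slc40a1 (-2.70) and Tfrc (-0.21) in DP against CTC, Slc11a1 (0.65) and Tfrc (2.01) in macrophage-like lung against blood and Slc40a1 (-0.53) in melanoma-like DP against CTC. With equal weights they were Hmox1 (1.59), Ftl1 (0.39) and Cd163 (1.46) in DP against WBC, Tfrc (-0.88) in DP against CTC, Hmox1 (0.15) in CTC against WBC, Slc11a2 (0.46) in macrophage-like DP against WBC, Fth1 (0.07) and Ftl1 (0.08) in melanoma-like DP against CTC and Tfrc (-0.15) in melanoma-like lung against blood. In blood alone Hmox1 was 0.45 in DP against WBC. In macrophage-like lung against blood, DESeq2 and its size factors gave 0.06 for Hmox1 and 0.52 for Tfrc. There the fit without the alveolar cluster gave 0.01 for Slc11a1, 0.90 for Tfrc and 0.14 for Cd163, without the block as well 0.31 for Slc11a1 and 0.48 for Hmox1, and the Stab1 cluster alone 0.02 for Slc11a1, 0.73 for Hmox1 and -1.11 for Slc11a2. Macrophage-like DP against WBC without the alveolar cluster gave 0.05 for Slc11a1 and 2.20 for Slc11a2.

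Depth limits shares of cells with a count: 108 of 198 shares were higher without thinning. Macrophage-like and melanoma-like lung against blood rest on 3 and 1 residual degrees of freedom, beside 70.79 and 7.62 prior degrees of freedom pooled over genes.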
